A study of Rattus norvegicus with 15 samples.

Results

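Creatine kinases, the enzymes that make creatine and the oxygen carrier myoglobin were followed in rat H9c2 cells cultured with and without all-trans retinoic acid (RA). The members were chosen by name as Ckm, Ckb, Ckmt2, Gatm, Gamt and Mb, and a gene entered when its symbol had a row in the table of counts. Of these 6 genes, 5 had a row among the 11574 genes tested, and Ckb was not analysed here. They were Ckm (ENSRNOG00000016837, band 1q21), Ckmt2 (ENSRNOG00000055450, 2q12), Gatm (ENSRNOG00000000168, 3q35), Gamt (ENSRNOG00000024577, 7q11) and Mb (ENSRNOG00000004583, 7q34), all protein coding.

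Creatine kinases move a phosphate group between ATP and creatine, so that phosphocreatine acts as a store and carrier of energy in cells with sudden or high demand. Ckm encodes the cytosolic muscle enzyme and Ckmt2 the sarcomeric mitochondrial enzyme, which phosphorylates creatine where ATP is made. Gatm moves the amidino group of arginine onto glycine, Gamt methylates the product to creatine, and the transporter Slc6a8 brings creatine into cells. Mb encodes myoglobin, the heme protein that stores oxygen and eases its diffusion in heart and oxidative skeletal muscle.

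H9c2 is a myoblast line from embryonic rat heart that forms multinucleated myotubes in low serum. The study set culture time against RA in 15 cultures of 5 groups, with 3 biological replicates each. T0 cells were collected 24 h after seeding in 10% fetal bovine serum. T7-RA and T14-RA cells were then kept in 1% serum without RA to day 7 or day 14, and T7+RA and T14+RA cells in the same serum with 1 µM RA added daily. RA was dissolved in DMSO, and the sources used here do not state whether the cultures without RA received DMSO. A difference from T0 therefore holds both the time and the drop in serum, which cannot be told apart. All cultures were wild type and came from 1 line. The sample titles name H9c2 throughout, whereas the cell line field gives each later sample another H9c number, which was not used for grouping.

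Libraries held 508397 to 1030820 counts, with 10234428 in all, and the member genes rested on 228 (Gamt) to 493 (Gatm) counts over the 15 libraries. Levels are given as CPM, the count as a share of the library's total scaled by trimmed mean of M values (TMM) factors. Where groups are said to overlap or not, this describes the libraries. The share of all genes whose groups do not overlap in CPM was not computed. A gene was called changed at an adjusted p under 0.001, or under 0.05 for the difference in the RA change between days. The T7, T14 and RA terms came from 1 additive model, in which RA has the same change on both days, and the other comparisons from a model with 1 mean per group.

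The promoters of the 3 genes that rose by day 14 are shown because all 3 rose by day 14, while Ckmt2 and Mb were called lower with RA at that day and Ckm was not. Each line gives the 250 bases before the annotated start, 5′ to 3′ on the gene's strand, from RefSeq in build GRCr8, with E-boxes (CANNTG) in capitals. E-boxes are the element bound by MyoD and myogenin, which drive muscle genes.
Ckm, chr1:88189211-88189460, plus strand: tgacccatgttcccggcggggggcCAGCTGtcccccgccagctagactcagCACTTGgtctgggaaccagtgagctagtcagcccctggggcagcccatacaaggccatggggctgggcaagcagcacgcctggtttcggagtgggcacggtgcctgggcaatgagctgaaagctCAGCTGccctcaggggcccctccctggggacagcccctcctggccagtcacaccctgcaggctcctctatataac
Ckmt2, chr2:24845512-24845761, minus strand: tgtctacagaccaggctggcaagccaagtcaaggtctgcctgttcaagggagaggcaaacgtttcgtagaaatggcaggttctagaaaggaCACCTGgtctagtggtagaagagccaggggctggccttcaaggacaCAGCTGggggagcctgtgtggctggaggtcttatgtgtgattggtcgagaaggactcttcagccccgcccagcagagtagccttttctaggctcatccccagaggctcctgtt
Mb, chr7:110647743-110647992, minus strand: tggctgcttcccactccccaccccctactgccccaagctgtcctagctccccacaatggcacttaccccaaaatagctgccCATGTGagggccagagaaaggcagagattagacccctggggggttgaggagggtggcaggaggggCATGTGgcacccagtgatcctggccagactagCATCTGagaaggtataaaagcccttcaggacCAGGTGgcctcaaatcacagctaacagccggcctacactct

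All 5 members were found by symbol in the RefSeq promoter table. The Ckm window held 3 E-boxes, starting at -226, -199 and -75 as counted backwards from the start, and 2 of them read CAGCTG. The Ckmt2 window held 2, at -159 and -113, of which the one at -113 read CAGCTG. The Mb window held 4, at -169, -104, -72 and -41, none of them CAGCTG. The Gatm window had 1 E-box, and the Gamt window had none but held 4 GC boxes (GGGCGG on either strand). Ckmt2 held 1 GC box, starting at -49, and Ckm, Gatm and Mb had none. Of 33469 rat promoters of the same length, 65.5% held at least 1 E-box, 30.8% at least 2, 11.5% at least 3 and 3.2% at least 4, while 12% held CAGCTG and 30.5% a GC box. Of the core element that retinoic acid receptors bind in pairs, only the spelling AGGTCA was searched, so other spellings were not counted. AGGTCA was found in 4707 of the 33469 windows and in none of the 5. Nor did they hold a match to the MEF2 site or the CArG box, found in 2.96% and 1.5% of all windows. Motifs were searched on both strands, CAGCTG is a subset of CANNTG, and a match is a description of the letters and not a bound site.

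Over 14 days Ckm, Ckmt2 and Mb rose from near the detection limit, whereas Gatm and Gamt did not pass the test. At day 14 Ckm with RA lay within the replicate spread, and Ckmt2 and Mb were lower with RA. In bulk cultures, fewer muscle cells and less of an mRNA per cell cannot be told apart. At T14, 3 of the 5 members were called up, against 8.47% of all genes tested, and none down, against 8.85% (17.3% in either direction). At T7 none of the 5 was called, against 4.29% of all genes up and 4.44% down (8.73% in either direction), although 3 members and 3958 of all genes had an unadjusted p under 0.05 by edgeR's quasi-likelihood test, and DESeq2 and limma-voom also called 0. For the RA term 2 members, Ckmt2 and Mb, were called down, against 3.07% of all genes, with 6.39% called in either direction. The call of Mb was lost under DESeq2 and with the replicate number as a block.

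**Figure D1:**
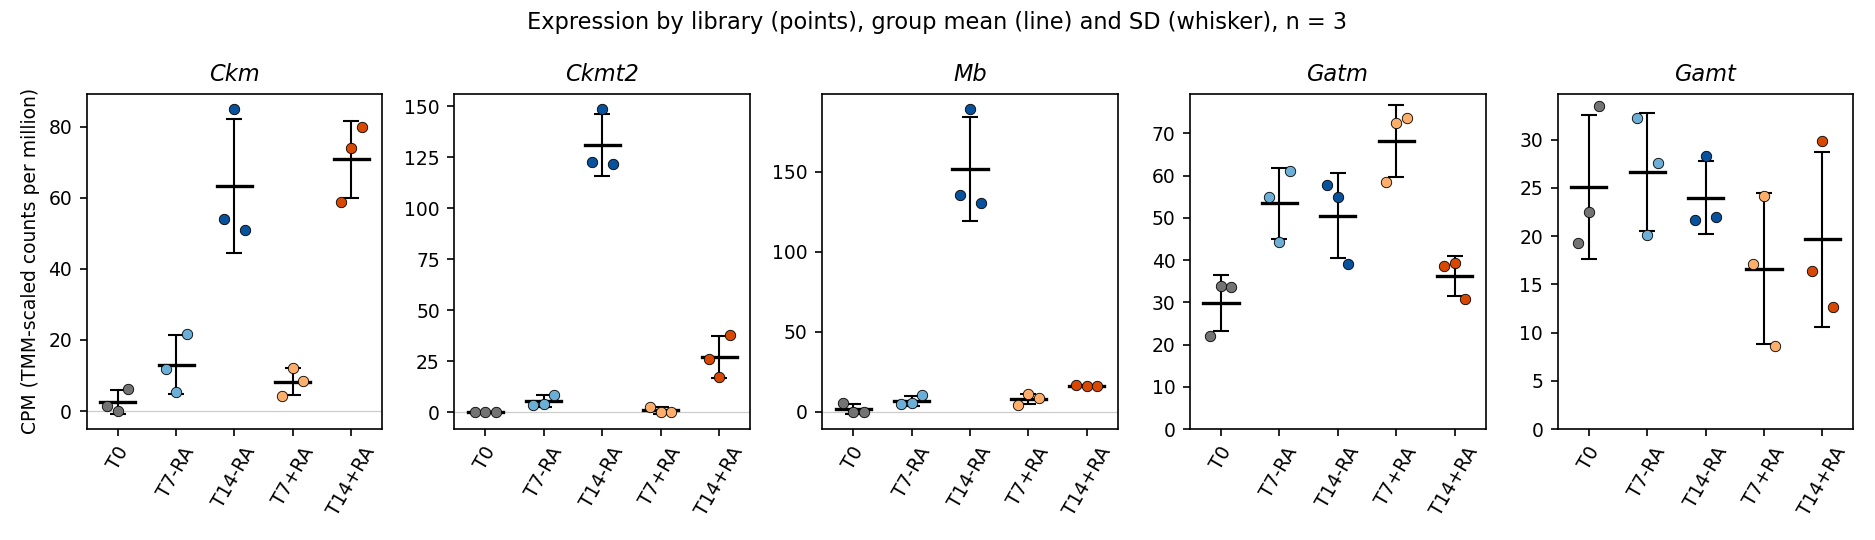
Level of each member in CPM (vertical axis, linear, with its own scale in each panel) by group. Points are libraries, lines are group means and whiskers are SD (n = 3). Ckm is high at day 14 with and without RA, whereas Ckmt2 and Mb are highest in T14-RA and lie between 15.7 and 38.1 CPM in T14+RA.

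Ckm, the muscle creatine kinase, rose late in culture and to overlapping ranges with and without RA. The T0 libraries held 1, 0 and 3 counts (1.38, 0 and 6.29 CPM). At day 7, Ckm stood at 11.9, 5.38 and 21.8 CPM without RA and at 4.28, 12.1 and 8.57 CPM with RA. At day 14 the values were 54.1, 85.0 and 50.8 CPM without RA and 58.8, 73.9 and 79.8 CPM with RA. Every day 14 library was above every earlier one, and the day 14 groups overlapped with each other, as did the 3 groups at T0 and day 7.

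Group means were 2.56 ± 3.31 CPM at T0, 13.03 ± 8.26 in T7-RA, 8.31 ± 3.91 in T7+RA, 63.3 ± 18.9 in T14-RA and 70.8 ± 10.8 in T14+RA (SD, n = 3). The T14 term was 4.73 on the log2 scale (SE 0.49, adjusted p = 2.4e-11). T0 rested on 4 counts in all, so the ratio of T14-RA to T0 was 26.8 with a 95% counting interval of 10.2 to 100.1. The T7 term, 2.12 (SE 0.67, adjusted p = 0.0159), did not pass. Without T0 replicate 3, which held 3 of these 4 counts, the T7 term of Ckm was 3.48 (adjusted p = 0.00475) and the T14 term 6.09, and without T0 replicate 2 the T14 term was 4.24, with the T14 call kept in all 15 such fits.

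In the second week Ckm rose by 2.27 (SE 0.32, adjusted p = 2.99e-07) without RA and by 3.02 (SE 0.35, adjusted p = 1.16e-09) with RA. The change with RA was 0.15 at day 14 (95% interval -0.33 to 0.64, adjusted p = 0.8) and -0.60 at day 7 (-1.57 to 0.37, adjusted p = 0.611). The day 14 interval spans folds of 0.795 to 1.56, so the data go with a change of Ckm anywhere inside these bounds. The bounds are not a limit of detection at an adjusted p under 0.001.

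Ckmt2, the sarcomeric mitochondrial creatine kinase, rose over the same days and was 4.88-fold lower with RA at day 14. All 3 T0 libraries held 0 counts, which allows up to 1.73 CPM over the group. At day 7 the libraries without RA held 3, 3 and 6 counts (3.58, 4.03 and 8.71 CPM), and those with RA held 2, 0 and 0 (2.85, 0 and 0 CPM). At day 14 the level was 122.5, 148.8 and 121.9 CPM without RA and 26.0, 17.3 and 38.1 CPM with RA. Each T14-RA library was above each T14+RA library. At day 7 the lowest library without RA held 3 counts and the highest with RA held 2, so their order there is no result.

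Set against the limit of 3 counts over the T0 group, Ckmt2 was at least 75.1-fold higher in T14-RA and at least 15.3-fold higher in T14+RA, with the counts of the later groups taken as exact. The lower 95% counting limits of these ratios were 60.6 and 12.1. The T14 term was called (adjusted p = 4.4e-19). The T7 term was not (adjusted p = 0.00469). With RA at day 14, Ckmt2 changed by -2.29 on the log2 scale (SE 0.24, 95% interval -2.76 to -1.81, adjusted p = 1.37e-11). At day 7 the counts were 12 without RA and 2 with RA, a ratio of 5.36 with a counting interval of 1.19 to 49.3, and the test did not pass (adjusted p = 0.129). The RA change at day 14 minus that at day 7 was -0.06 and did not pass (adjusted p = 0.99). No interval is given, because the SE of this difference (0.49) fell below that of the day 7 change it contains (0.88). With 2 counts in T7+RA the days could not be told apart. Without T7+RA replicate 1, which held both of those 2 counts, this difference was 2.62 and the adjusted p with RA at day 7 was 0.0358.

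The second week raised Ckmt2 by 4.58 without RA (SE 0.32, adjusted p = 3.14e-18). With RA the counts went from 2 to 59, a ratio of 26.9 with a counting interval of 7.13 to 227.5 (adjusted p = 5.58e-08). Without T7+RA replicate 1 the T7+RA group held 0 counts, and the call remained (adjusted p = 3.55e-07). Hence Ckmt2 rose in both arms of the second week, and the T14+RA group still stood 5.02 times above T7-RA by counts, with an interval of 2.67 to 10.3.

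The balance of the 2 creatine kinase genes did not overlap between the arms at day 14. Ckm held 30.6%, 36.4% and 29.4% of the Ckm plus Ckmt2 counts in the T14-RA libraries and 69.3%, 81% and 67.7% in the T14+RA libraries. The exact binomial 95% intervals of the former ended at 45.2% or lower and those of the latter began at 54.9% or higher, and they cover counting error only. Group means were 32.1% ± 3.74 and 72.7% ± 7.26 (SD, n = 3). At day 7 the share was 68.5% ± 10.2 without RA and 86.7% ± 23.1 with RA, on 5 to 21 counts per library, and the groups overlapped. The share per length was 29.3% in T14-RA and 69.9% in T14+RA. The share was chosen after the data were seen, restates the levels of both genes and is given as a description with no test.

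**Figure D2:**
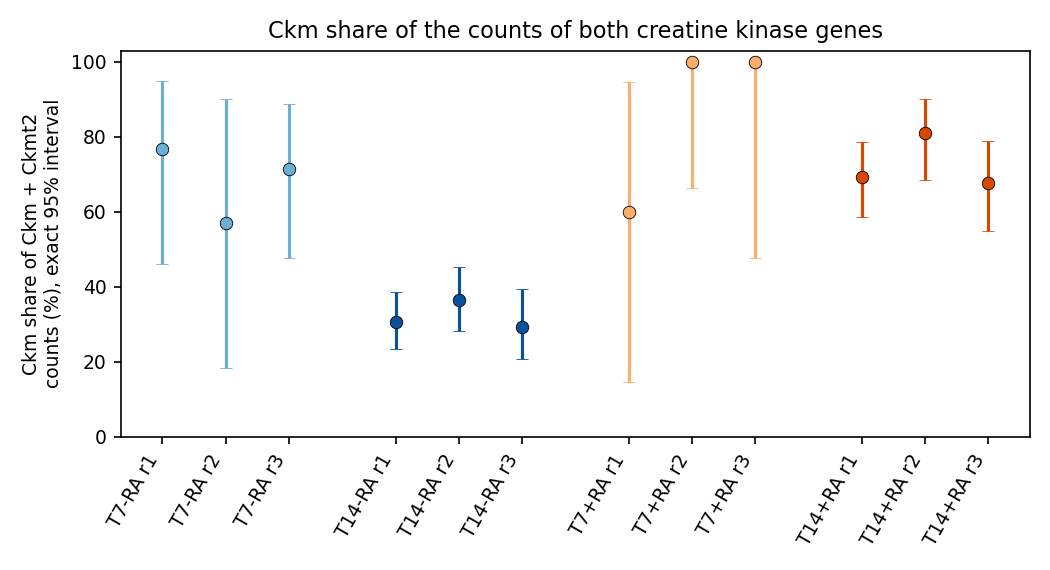
Ckm share of the Ckm plus Ckmt2 counts in percent (vertical axis) in each library from day 7 on, with exact 95% binomial intervals as bars. The T14-RA libraries lie between 29.4% and 36.4% and the T14+RA libraries between 67.7% and 81%, with no overlap of the intervals between these groups.

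Mb, which encodes myoglobin, rose in the second week without RA, and its smaller increase with RA did not pass the test. Its counts at T0 were 4, 0 and 0 (5.52, 0 and 0 CPM). At day 7 it stood at 4.77, 5.38 and 10.2 CPM without RA and at 4.28, 10.7 and 8.57 CPM with RA. By day 14 the level was 135.7, 189.5 and 130.4 CPM without RA and 16.4, 15.7 and 16.3 CPM with RA. The T14-RA libraries were far above all others, the day 7 groups overlapped, and the T14+RA libraries lay above each day 7 library.

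With RA, Mb was 9.23-fold lower at day 14, a log2 change of -3.21 (SE 0.26, 95% interval -3.72 to -2.70, adjusted p = 2.49e-16). The change with RA at day 7 was 0.25 (-0.82 to 1.32, adjusted p = 0.899). The change at day 14 minus that at day 7 was -3.45 (SE 0.64, 95% interval -4.73 to -2.17), and this direct test of the difference passed (adjusted p = 0.000539). It was the only member called in that comparison, where 0.458% of all genes were called in that direction, 0.285% in the other and 0.743% in either. Without T7+RA replicate 2 the difference was -3.12 and its adjusted p 0.0521. Because the RA change of Mb differed between days, the single RA term of the additive model (-2.58, SE 0.42, adjusted p = 0.000526) describes neither day. Its call was lost under DESeq2 (adjusted p = 0.0618), with the replicate number as a block (0.00183) and in 7 of the 15 fits that left out 1 library (at most 0.00637).

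The second week raised Mb by 4.47 without RA (SE 0.30, adjusted p = 2.15e-19), a fold of 22.2. With RA the change was 1.02 (SE 0.44, 95% interval 0.13 to 1.91) and did not pass (adjusted p = 0.14). The T14 term was 5.79 (SE 0.73, adjusted p = 1.78e-05). All 4 counts of Mb at T0 were in replicate 1, and without that library the T14 term was 9.57 and still called (adjusted p = 0.000138), while the T7 term went from 2.36 (adjusted p = 0.174) to 6.1 (adjusted p = 0.12). With 1 mean per group in place of the additive model, the T7 change of Mb was 1.46 (adjusted p = 0.157) and the T14 change 5.93 (adjusted p = 2.47e-20). By counts the ratio of T14-RA to T0 was 64.8, with an interval of 25.1 to 239.4.

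**Figure D3:**
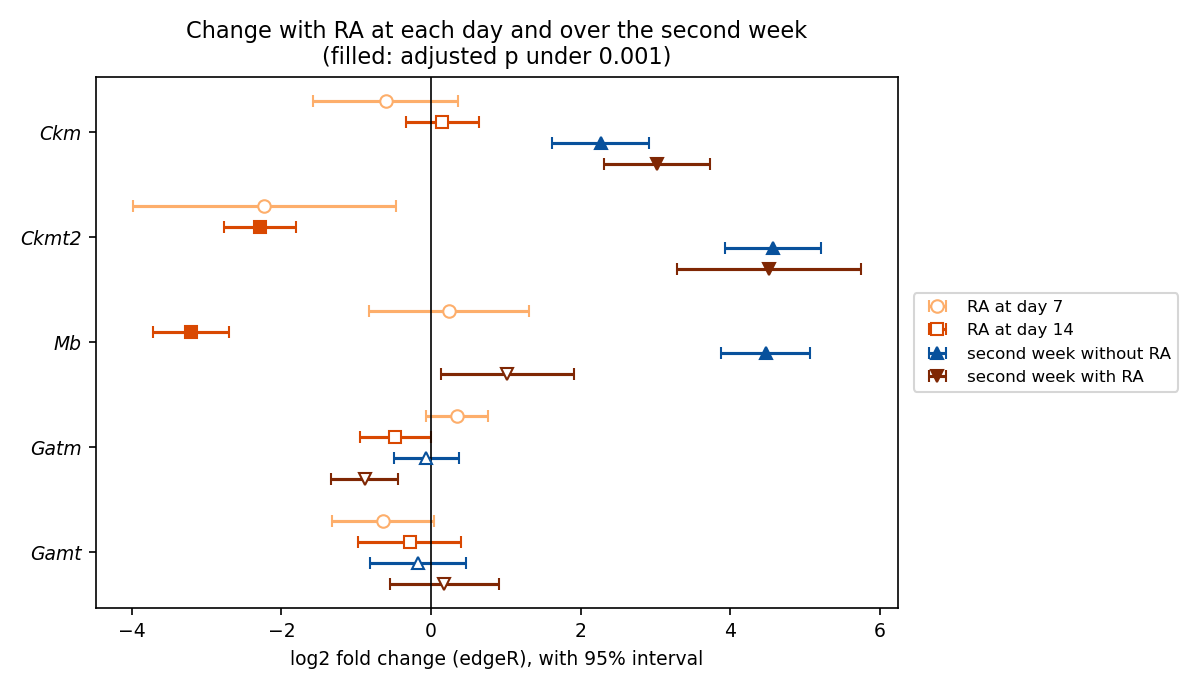
Log2 fold change (horizontal axis) of each member with RA at day 7 and day 14 and over the second week without and with RA, from edgeR, with 95% intervals as bars and filled symbols where the adjusted p was under 0.001. Mb and Ckmt2 lie at -3.21 and -2.29 with RA at day 14 and Ckm at 0.15, while Mb alone of these 3 has an open symbol for the second week with RA.

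Side by side at day 14, the members therefore gave 2 genes lower with RA and 3 not called. Both Mb and Ckmt2 were called down there, against 2.35% of all genes tested, with 2.46% called up and 4.81% in either direction. At day 7 none of the 5 was called with RA, against 1.87% of all genes up and 1.3% down (3.17% in either direction), with 1 member (Ckmt2) and 1996 of all genes at an unadjusted p under 0.05 by edgeR and 0 called by DESeq2 or limma-voom. In the second week without RA, Ckm, Ckmt2 and Mb were called up, against 1.87% of all genes, with 1.09% called down and 2.95% in either direction. In the second week with RA, Ckm and Ckmt2 were called up, against 2.4%, with 2.26% called down and 4.67% in either direction. These comparisons share groups, so that their counts are not independent of each other.

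Gatm and Gamt, which make creatine, were detected at T0 already and were not called in any comparison. Gatm stood at 22.1, 33.8 and 33.5 CPM at T0. At day 7 it was at 54.9, 44.4 and 61.0 CPM without RA and at 58.4, 72.5 and 73.7 CPM with RA. The day 14 values were 57.7, 54.9 and 39.0 CPM without RA and 38.6, 39.3 and 30.8 CPM with RA. All day 7 libraries were above all T0 libraries, and all T14+RA libraries were below all T7+RA libraries.

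The T7 term of Gatm was 1.06 (SE 0.25, adjusted p = 0.00103) and just missed the threshold. It passed under scaling by library size alone (adjusted p = 0.000283) and with the replicate number as a block (0.000904). It also passed without T7-RA replicate 2 (0.000337) or T14-RA replicate 3 (0.000947). The T14 term was 0.59 (SE 0.26, adjusted p = 0.072). In the second week with RA, Gatm changed by -0.89 (SE 0.22, adjusted p = 0.00312), with no call at 0.001, and without RA by -0.06 (SE 0.22, adjusted p = 0.934). The difference between the RA changes at day 14 and day 7 was -0.82 (SE 0.31, adjusted p = 0.353). In order of mean level, T7+RA (68.2 ± 8.48 CPM) came first, then T7-RA (53.4 ± 8.42), T14-RA (50.5 ± 10.1), T14+RA (36.2 ± 4.7) and T0 (29.8 ± 6.69), and each neighbouring pair overlapped.

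Gamt, the methyltransferase of the second step, lay between 8.57 and 33.5 CPM in all 15 libraries. Its means ran from 16.6 ± 7.81 CPM in T7+RA to 26.7 ± 6.08 in T7-RA (SD, n = 3). No comparison passed, and the largest change with RA was -0.64 at day 7 (SE 0.34, 95% interval -1.32 to 0.04, adjusted p = 0.337). With 5 to 27 counts per library, Gamt had the lowest total over the 15 libraries, although Ckm, Ckmt2 and Mb held fewer counts before day 14. Its T7 and T14 terms were 0.06 (SE 0.32) and 0.04 (SE 0.32).

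Between genes, levels were compared per length as TPM, the share of a gene in all counts per base, computed from the gene lengths listed in the table. At T0, Gamt (38 ± 12.2 TPM) and Gatm (23.8 ± 5.01) were the highest members, and Ckm, Mb and Ckmt2 stood at 3.71, 4.05 and 0 TPM. At day 14 without RA the order was Mb (324.2 ± 63.7 TPM), Ckmt2 (211.3 ± 20.9) and Ckm (88.8 ± 24.8), followed by Gatm (40.4) and Gamt (36.1). With RA at day 14, Ckm led with 97.9 ± 16.6 TPM, ahead of Ckmt2 (43.5 ± 18.5) and Mb (33.9 ± 2.27). Mb thus went from the first place of these 5 genes to the third, with Gamt (28.6) and Gatm (28.4) close below.

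Some markers of muscle moved with these genes and others did not. Of 8 skeletal muscle markers, 5 were measured (Acta1, Chrna1, Des, Myod1 and Myog), and their summed level was 155.1 to 258.9 CPM at T0, 1177 to 1420 in T7-RA, 811.1 to 977.3 in T7+RA, 4044 to 4269 in T14-RA and 2104 to 2521 in T14+RA. With RA at day 14, Chrna1, a subunit of the muscle acetylcholine receptor, changed by -2.71 and Acta1, skeletal actin, by -0.98, and these 2 of the 5 markers were called down, against 2.35% of all genes. The other 3 were not called there, with changes of -0.05 for Des, -0.17 for Myog and -0.28 for Myod1. At T14, 4 of the 5 were called up, against 8.47% of all genes, and Myod1 was not (-0.88, adjusted p = 0.00689). Of 11 cardiomyocyte markers 4 were measured (Actc1, Gata4, Hand2 and Tnnt2), at 78.6 to 88.0 CPM in sum at T0, 947.7 to 1080 in T14-RA and 649 to 748.1 in T14+RA. At T14, 2 of the 4, Tnnt2 and Actc1, were called up, against 8.47% of all genes. Gata4 (0.33, adjusted p = 0.575) and Hand2 (0.79, adjusted p = 0.249) were not. Tnnt2 made up most of the sum, with -0.26 for RA at day 14 and no call (adjusted p = 0.0846). Actc1, cardiac actin, was the 1 of the 4 called there, at 249.6 ± 23.0 CPM in T14-RA and 33.0 ± 13.9 in T14+RA (7.99-fold lower, adjusted p = 3.67e-20), beside 4.88-fold lower for Ckmt2 and 9.23-fold lower for Mb. With RA at day 7, Actc1 (-1.77, adjusted p = 0.000132) was already called down, 1 of these 4 markers. So was Acta1 (-0.72, adjusted p = 5.84e-07), 1 of the 5 skeletal muscle markers, against 1.3% of all genes. The other 7 cardiomyocyte markers, Myh6, Myh7, Nkx2-5, Nppa, Nppb, Tbx5 and Tnni3, were not analysed here. So the labelled myocardium could be checked only in part.

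The 4 fibroblast markers measured held 18450 to 37560 CPM in sum over all libraries, nearly all of it from Col1a1. Dcn and Lum, matrix proteoglycans, held 0 counts at T0 and 102 and 57 in T14-RA, and both were called up at T14 (adjusted p = 4.79e-11 and 5.96e-08), against 8.47% of all genes. With RA at day 14, Lum was called down, from 28.5 to 6.24 CPM (-2.15, adjusted p = 0.000639), as was Thy1 (-0.56, adjusted p = 8e-04), while Dcn was called up, from 50.5 to 119.7 CPM (1.21, adjusted p = 8.81e-05), and Col1a1 was not called (0.06), against 2.35% of all genes called down and 2.46% up. The 5 markers of smooth muscle went from 15330 to 16870 CPM in sum at T0 to 3394 to 5370 CPM later, nearly all of it from Acta2 and Tagln. At T14, 4 of them were called down, against 8.85% of all genes, and Myh11 was not called (0.32). With RA at day 14, Acta2 was called up (0.39, adjusted p = 0.000935), and the values of the others, none called, were 0.32 for Tagln, 0.58 for Cnn1, -0.45 for Myh11 and -1.18 for Myocd. Tek, the single endothelial marker measured, was at 6.29 CPM or less, and the macrophage and brain markers were not analysed here. The part of these markers in the changes of Ckm, Ckmt2 and Mb was not tested.

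Divided by the summed skeletal muscle markers of the same library, Mb was at 36.5 ± 8.96 CPM per 1000 CPM of markers in T14-RA and 6.91 ± 0.80 in T14+RA, and Ckmt2 at 31.5 ± 4.61 and 11.6 ± 4.42. Both thus lay lower with RA without overlap on this scale too, as did 1.92% of all genes. Ckm, whose day 14 groups overlapped in CPM, went from 15.2 ± 5.02 to 30 ± 2.43 without overlap, but so did 62.7% of all genes, which lay higher with RA on this scale, so that this is no result about Ckm. The divisor was mostly Acta1, which held 78% ± 1.5 of it in T14-RA and 70.2% ± 1.79 in T14+RA and was itself lower with RA. With Acta1 left out of the sum, Mb was at 165 ± 28.7 and 23.2 ± 2.56, Ckmt2 at 142 ± 11 and 39.6 ± 17, and Ckm at 68.4 ± 17.5 and 101 ± 14.7 CPM per 1000 CPM of the other 4 markers. These scales were chosen after the data were seen.

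**Figure D4:**
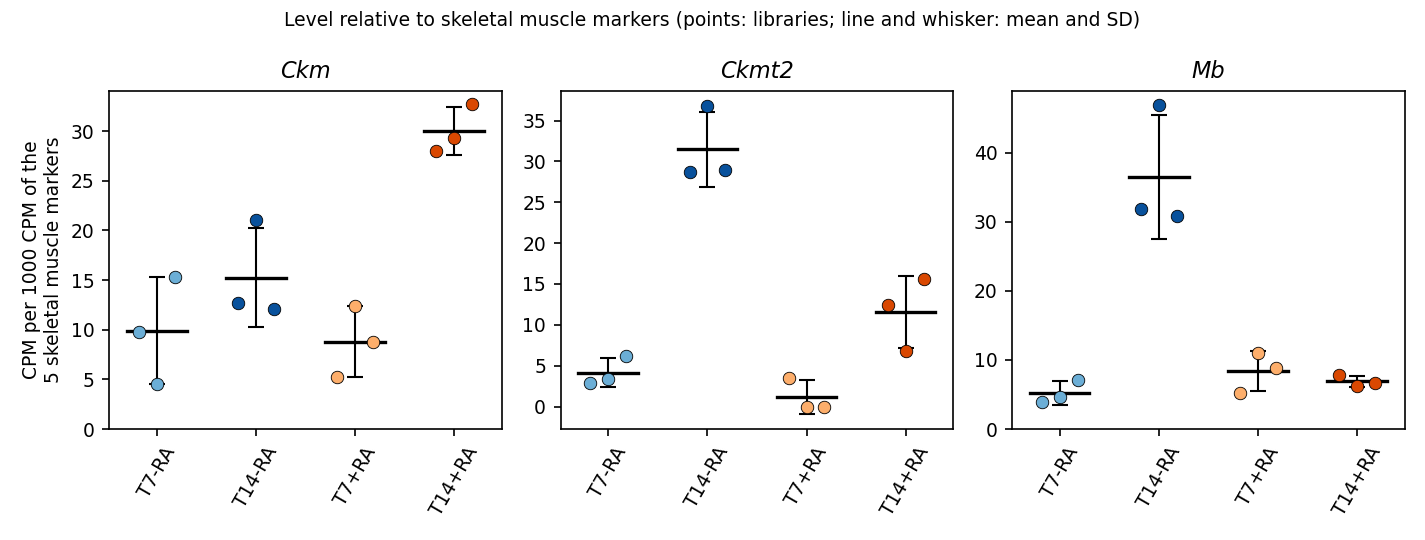
CPM of Ckm, Ckmt2 and Mb per 1000 CPM of the 5 skeletal muscle markers (vertical axis, linear) in the groups from day 7 on. Points are libraries, with the mean as a line and the SD as a whisker (n = 3), and T14+RA lies above T14-RA for Ckm, as for 62.7% of all genes, and below it for Ckmt2 and Mb.

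Regulators that act on muscle and oxidative genes were listed beside the members, and 5 of 6 were measured, Ppargc1a not being analysed here. Myog, which encodes myogenin, rose by 3.12 at T7 (adjusted p = 2.11e-24) and 3.81 at T14 (adjusted p = 2.65e-29), and its RA term of -0.30 did not pass (adjusted p = 0.00501). Mef2c, a partner of the myogenic factors, was the 1 regulator of 5 called with RA at day 14, against 4.81% of all genes in either direction, at 135.3 ± 11.3 CPM without RA and 70.0 ± 25.8 with RA (log2 change -1.01, SE 0.18, adjusted p = 2.35e-05). This call was lost without T14-RA replicate 1 and without T14+RA replicate 1 or 2, with an adjusted p of at most 0.00402. Myod1 changed by -1.19 in the second week with RA (adjusted p = 7.69e-07). Mef2d and Esrra were not called in any comparison. Whether these regulators act on the members was not tested.

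Slc6a8, the creatine transporter, rose with time and with RA, from 78.8 ± 12.1 CPM at T0 to 140.6 ± 17.0 in T14-RA and 251.5 ± 29.7 in T14+RA (SD, n = 3). Its T14 term was 0.91 (SE 0.16, adjusted p = 4.4e-06) and its RA term 0.74 (SE 0.10, adjusted p = 4.95e-08). Within day 14 the change with RA was 0.84 (SE 0.13, adjusted p = 1.76e-06), with every T14+RA library above every T14-RA library (221.6 to 281.0 against 125.8 to 159.2 CPM). At day 7 it stood at 107.7 ± 9.78 CPM without RA and 165.8 ± 11.6 with RA (0.62, adjusted p = 0.00181, not called). The RA change at day 14 minus that at day 7 was 0.22 and did not pass (adjusted p = 0.858). So at day 14 Slc6a8 was higher with RA while Ckmt2 and Mb were lower, but its means differed at day 7 too.

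Of 20 genes of creatine transport and of arginine, glycine and methyl supply, 14 were measured. At T14, 5 were called up and 3 down, against 8.47% and 8.85% of all genes, and for RA 3 up and 2 down, against 3.33% and 3.07%. Slc7a1, a carrier of arginine, fell at T7 (-0.94, adjusted p = 8.41e-08) and T14 (-1.49, adjusted p = 6.37e-14). Ass1, which makes the precursor of arginine, rose at T14 (2.67, adjusted p = 8.24e-05), a call lost under DESeq2 (0.00102) and without T0 replicate 1 (0.00158) or 3 (0.00103), and 3.67 without T0 replicate 2. It was lower with RA (-2.73, adjusted p = 5.75e-07), on 2 to 44 counts per group. Its calls within day 7 and day 14 were lost under DESeq2 (adjusted p = 0.021 and 0.00662), under limma-voom (0.00307 and 0.00121) and in 6 of the 15 fits without 1 library each, namely those without a library of the 2 groups compared. Mat2a, which makes the methyl donor that Gamt uses, was higher with RA (0.60, adjusted p = 7.89e-07). It was among the 5 called up at T14 (0.55, adjusted p = 0.000914). That call was lost under DESeq2 (0.00162), limma-voom (0.00151) and 1 mean per group (0.00506), and in 12 of the 15 fits without 1 library. The median log2 change of the list was -0.03 at T14 and 0.05 for RA, beside 0.05 and -0.01 over all genes.

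Other phosphate transfer enzymes were listed together with the AMP deaminases, and 10 of these 15 genes were measured in 11 rows. At T14, 2 rows were called up, against 8.47% of all genes. None was called for RA by edgeR, against 6.39% in either direction. Both rows called at T14 were AMP deaminases, which do not move phosphate between nucleotides, so no phosphate transfer enzyme of the list was called there. Ampd1, the muscle form, held 0 counts at T0, 69 in T14-RA and 33 in T14+RA (T14 term, adjusted p = 4.99e-10), and the RA term did not pass (adjusted p = 0.0165). Ampd3 rose by 4.09 (SE 0.69, adjusted p = 2.61e-06), with 49 and 52 counts in these groups. The median of the list was 0.26 at T14 and -0.08 for RA, beside the same 0.05 and -0.01.

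Of the 7 carriers and channels that pass ATP, ADP and phosphate across the mitochondrial membranes, all were measured. Vdac3, an outer membrane channel, was called up at T7 (0.70, adjusted p = 0.00036) and T14 (0.88, adjusted p = 4.07e-06), which was 1 gene of 7 in each term, against 4.29% and 8.47% of all genes. The T7 call of Vdac3 was lost with limma-voom (adjusted p = 0.00106), without T0 replicate 3 (0.0172) and without any of the T7-RA libraries. No gene of the list was called for the RA term by edgeR, against 6.39% of all genes in either direction. Slc25a4, the muscle form of the adenine nucleotide translocator, was the 1 gene of 7 called with RA at day 14 (0.49, adjusted p = 0.000214), against 2.46% of all genes called up, a call lost in 5 of the 15 fits without 1 library (adjusted p of at most 0.00669). In the second week with RA, Slc25a4 (0.63, adjusted p = 1.84e-06) and Vdac2 (0.70, adjusted p = 2.77e-05) were called up, against 2.4% of all genes. The list had a median of 0.28 at T14 and 0.17 for RA, beside 0.05 and -0.01 over all genes.

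Of 14 globins and heme genes, 9 were measured, all of them heme enzymes, and no other globin than Mb was analysed here. Hmox1, which breaks heme down, fell at T7 (-0.82, adjusted p = 4.82e-06) and T14 (-0.75, adjusted p = 1.72e-05). The T14 call was lost without T0 replicate 1 (-0.65, adjusted p = 0.00153). None of the 9 was called for the RA term or within day 7 or day 14 by edgeR, against 6.39%, 3.17% and 4.81% of all genes, so that this count is near the background. Their median was 0.63 at T14 and 0.12 for RA, beside 0.05 and -0.01 over all genes.

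**Figure D5:**
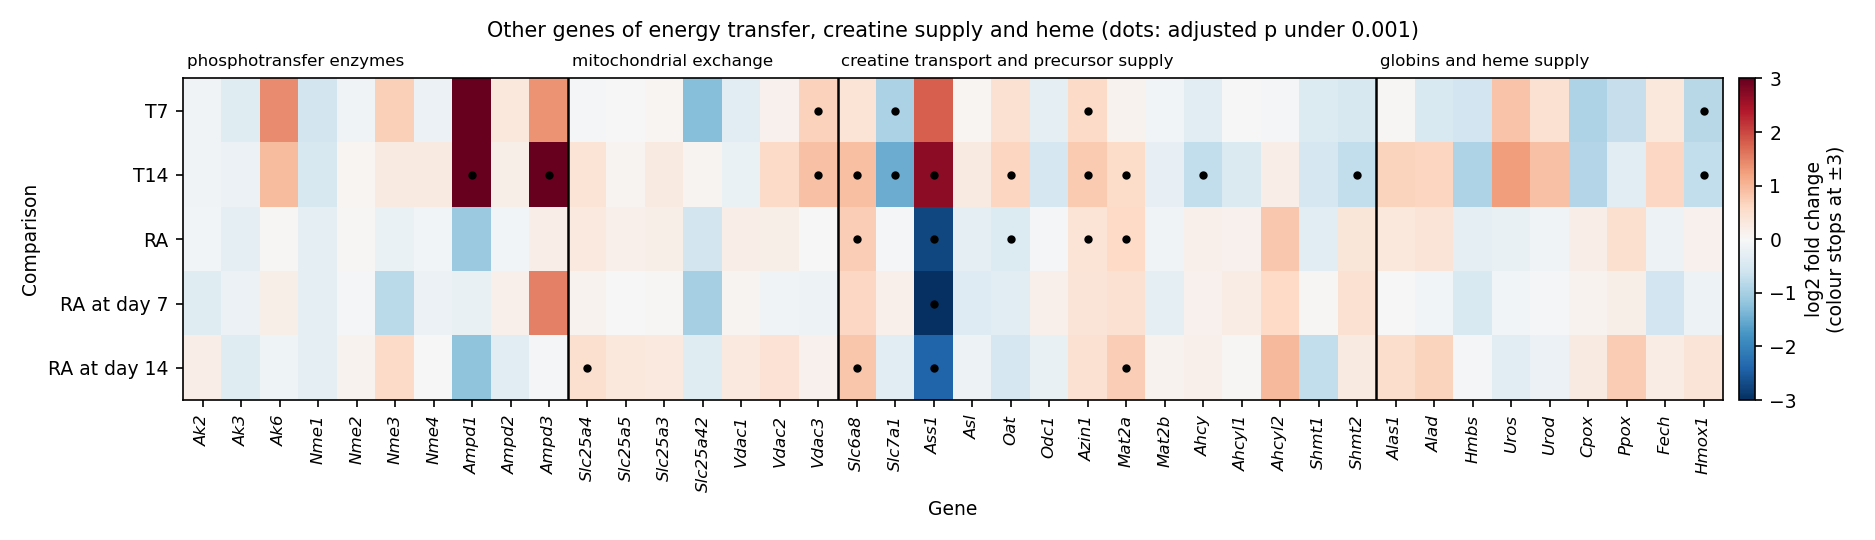
Log2 fold change (colour, ending at ±3) of the measured genes of 4 lists (columns) in 5 comparisons (rows), with a dot where the adjusted p was under 0.001. For Ak6, 1 of its 2 rows in the table is drawn. Slc6a8 is red with a dot at T14, for RA and for RA at day 14, and Ass1 is blue with a dot in the 3 comparisons with RA, of which those within day 7 and day 14 were lost under DESeq2 and limma-voom.

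The genes with the most similar pattern were taken by Pearson's r of log2 CPM over the 15 libraries, among 6386 genes with a mean of at least 20 counts per library. The libraries share group and depth, so r is a description. Ckmt2 was closest to Myl1 (r = 0.966), a myosin light chain, Pacsin3 (0.961) and Tmem38b (0.955), an ion channel of the endoplasmic reticulum, and with RA at day 14 these changed by -1.47, -1.01 and -1.14. Mb was closest to Casq1 (r = 0.949), which stores calcium in the sarcoplasmic reticulum, Klhl41 (0.947), a sarcomere protein, and Rabep2 (0.925), with RA changes at day 14 of -2.46, -1.37 and -1.16. Ckm was closest to Tmem158, Dcn and Bin1 (r = 0.946 each), with RA changes of 0.56, 1.21 and -0.36, of which that of Dcn was called (adjusted p = 8.81e-05).

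The closest genes to Gatm were Cavin2 (r = 0.857), Nip7 and Mob4 (0.838 each), and those to Gamt were Rgs19 (0.888), Fbxw8 (0.783) and Mast3 (0.779). A smaller prior count of 0.5 kept all 3 genes of Ckmt2 and of Gatm, 2 of Gamt, 1 of Ckm and none of Mb, so that the neighbours of Mb depend on how low counts are treated. Between members, r was 0.911 for Ckmt2 and Mb, 0.859 for Ckm and Ckmt2 and 0.776 for Ckm and Mb, and between -0.06 and 0.22 for each pair with Gatm or Gamt.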

How the data were processed

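Per the labels and the study's methods, the authors sequenced stranded mRNA libraries of 15 cultures as paired reads, trimmed them, aligned them with HISAT2 to Rnor 6.0 and counted reads per gene with featureCounts. The versions and the strand setting are not given in the sources used here. The deposited values are raw counts of 11574 genes, after the authors dropped genes whose sum over the 15 libraries was 20 counts or fewer. How the listed gene lengths were taken is not stated, and TPM rest on them.

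All genes were fitted with edgeR 4.0.16 (R 4.3.3) by the quasi-likelihood test with TMM factors, without a replicate block, and p-values were adjusted by Benjamini-Hochberg over all genes. The additive model took the T7, T14 and RA terms of the study's limma formula. Its further term b, which the sources used here do not define, was read as the intercept. The second model had 1 mean per group. SE came from the log2 change and F, and 95% intervals from the t distribution. DESeq2 1.42.0 and limma 3.58.1 (voom), other scalings, a filter on low counts, the replicate number as a block and fits without each library served as alternatives. Intervals of ratios and shares cover counting error only, since reads without molecular identifiers are not independent molecules. The fits were tested on simulated data.

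The members and lists were chosen with earlier results of these data known. The members were named whatever their values. Of each other list, up to 4 genes called in the T7, T14 or RA term were named by smallest p, and Slc6a8 whatever its values. Slc25a4, Vdac2 and the single cell type markers were named after their values were seen. For each member the 3 genes with the highest r were named. Promoters came from RefSeq in build GRCr8, which is not the build of the counts.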

Additional observations from a re-analysis of the deposited data

Results flagged for a closer look

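The change of Mb with RA at day 14 minus that at day 7 was -3.45 on the log2 scale (95% interval -4.73 to -2.17, adjusted p = 0.000539 by edgeR's quasi-likelihood test of the difference itself). It stands out because the RA changes of the same gene at the 2 days differed by a direct test. Mb was lower in each T14+RA library than in each T14-RA library, and overlapped at day 7. The day 7 groups rested on 15 and 16 counts. With 3 libraries per group, no group was large enough for a test of single far-off libraries.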

How the results depend on the processing

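The calls at T14 (3 members up), with RA at day 14 (2 down), in the second week without RA (3 up) and with RA (2 up) held under every alternative and in every fit without 1 library, and none was called with RA at day 7 in any of them, except that the second week with RA counted 3 at an adjusted p under 0.05 (Gatm added, -0.89, adjusted p = 0.00312). For Mb with RA at day 14 the change ranged from -3.23 to -3.14 over the alternatives and from -3.30 to -3.03 without 1 library, and for Ckmt2 from -2.32 to -2.28 and from -2.52 to -2.08. The RA term counted 1 member in place of 2 under DESeq2 (Mb -1.71, adjusted p = 0.0618), and 1 to 2 without 1 library. Mb lost this call without T7-RA replicate 3, T14-RA replicate 1 or 3, T7+RA replicate 1 or any T14+RA library (adjusted p of at most 0.00637). The T7 term counted 1 member (Gatm) with library size only, 3 at an adjusted p under 0.05, and 0 to 1 without 1 library. The difference between days counted 1 under 6 alternatives and 0 to 1 without 1 library, with 0 when T7+RA replicate 2 was left out. DESeq2 gave no adjusted p for Mb there (-3.48, unadjusted p = 2.01e-07), so that count is not given.

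With the replicate number as a block, the T7 term counted 1 member (Gatm, adjusted p = 0.000904) and the RA term 1 (Mb lost, adjusted p = 0.00183), and no other count changed. Replicates with the same number did not deviate together in every pair (correlation -0.05 to 0.27 over 30 pairs). The mean was 0.05 for the same number and -0.03 for different numbers. For 10 of 15 libraries, the mean correlation was highest with the libraries of their own number. The causes of these shifts were not tested.

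Signs turned only for changes that were not called. They were Ckm for RA (-0.0642 with DESeq2, -0.00011 with RLE size factors, -0.0192 with library size only, -0.12 to 0.15 without 1 library), Gatm for RA (0.0114 with limma-voom, -0.11 to 0.11), Gamt at T14 (-0.0395 with 1 mean per group, -0.13 to 0.29) and Ckmt2 for the difference between days (0.13 with DESeq2, -0.63 to 2.62). Without 1 library the range also crossed 0 for Gamt at T7 (-0.11 to 0.30), in the second week with RA (-0.19 to 0.55) and for the difference between days (-0.0221 to 0.73), for Mb with RA at day 7 (-0.0829 to 0.63) and for Gatm in the second week without RA (-0.19 to 0.0776).

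Of the other genes, the T7 call of Vdac3 was lost with limma-voom (adjusted p = 0.00106) and without T0 replicate 3 or any T7-RA library, the T14 call of Hmox1 without T0 replicate 1, that of Ass1 with DESeq2 (0.00102) and without T0 replicate 1 or 3, and that of Mat2a with DESeq2 (0.00162), limma-voom (0.00151) and 1 mean per group (0.00506) and in 12 of 15 fits without 1 library, while Slc6a8 kept its T14, RA and day 14 calls in all fits. Of the 15 genes with the most similar patterns, 9 were shared at a prior count of 0.5. The planned share of Ckm in Ckm and Ckb was not run, because Ckb was not analysed here. The filter on low counts kept 9176 genes, with all 5 members. Depth limits Ckmt2 and Mb before day 14 most, where a group held 0 to 16 counts.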
